A study of Mus musculus with 20 samples.

Results

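MALAT1, NEAT1, H19, GAS5, SNHG1, SNHG8 and SNHG12 are 7 long noncoding RNAs whose level was followed in liver after knockdown of HuR (ELAVL1), an RNA-binding protein. They were chosen by name, as genes that occur in both the human and the mouse expression table, and all 7 were found once among the 60607 human genes and once among the 55335 mouse genes. The experiment held 20 livers. In the humanized set, TK-NOG mice, which are immunodeficient and carry a herpesvirus thymidine kinase driven by the mouse albumin promoter, were given ganciclovir at 25 mg/kg at 8 to 9 weeks of age, which kills hepatocytes that carry the transgene, and were then engrafted with human hepatocytes. They were used 8 to 12 weeks later if their serum held more than 0.5 mg/ml human albumin, and received an adenovirus with an shRNA against human HuR (HuR KD, 4 livers) or with LacZ (4 livers). In the wild-type (WT) set, male C57BL/6 mice received an adenovirus with an shRNA against mouse HuR (6 livers) or with LacZ (6 livers). Each mouse of either set was given 2000000000 pfu. Livers were collected 7 days later from mice fasted for 4 h, and their total RNA was sequenced with a strand-specific kit. The livers are chimeric, with mouse cells, hepatocytes among them, beside the human ones, and only human genes are listed for them. Which livers share a hepatocyte donor was not given in the sources used here.

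MALAT1 is an abundant RNA of nuclear speckles, bodies rich in splicing factors. NEAT1 is the scaffold of paraspeckles, nuclear bodies that hold proteins such as NONO and SFPQ. H19 is an imprinted RNA of fetal liver that is silenced after birth and is the precursor of a microRNA. GAS5, SNHG1, SNHG8 and SNHG12 are spliced RNAs whose introns hold small nucleolar RNAs, guides for the chemical modification of ribosomal RNA. Their spliced exons reach the cytoplasm, where nonsense-mediated decay removes many of them. HuR binds runs rich in U, or in A and U, and its binding has most often been tied to a longer life of the target RNA.

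The mouse genes were located in the GENCODE M21 annotation of GRCm38. Malat1 (chr19:5795690-5802672, minus strand) and Neat1 (chr19:5824708-5845478, minus strand) are neighbours, and the longest transcript of each fills the whole gene without introns, with 6983 and 20771 bases. Gas5 (chr1:161034422-161038539, plus strand) holds 10 annotated entries of small nucleolar RNAs. Snhg1 (chr19:8723475-8726443, plus strand) holds 8, Snhg12 (chr4:132308623-132311024, plus strand) holds 5, and Snhg8 (chr3:123507552-123508404, minus strand) holds 1. H19 (chr7:142575529-142578143, minus strand) holds 1 microRNA, Mir675.

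The start sites of the 4 mouse host genes are shown because transcripts of this class are known for beginning with a run of C and T bases, as the messenger RNAs of ribosomal proteins do. The sequences come from RefSeq on GRCm38, run from 30 bases before the annotated first base to 40 bases from it on, and carry in capitals the unbroken run of C and T, on the transcribed strand, that covers the first base.
Gas5, chr1:161035136-161035205, plus strand: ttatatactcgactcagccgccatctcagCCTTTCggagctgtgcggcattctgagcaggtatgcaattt
Snhg1, chr19:8723457-8723526, plus strand: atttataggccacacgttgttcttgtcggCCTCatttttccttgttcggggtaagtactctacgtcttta
Snhg8, chr3:123508297-123508366, minus strand: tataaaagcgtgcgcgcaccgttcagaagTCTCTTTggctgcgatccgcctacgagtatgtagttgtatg
Snhg12, chr4:132308648-132308717, plus strand: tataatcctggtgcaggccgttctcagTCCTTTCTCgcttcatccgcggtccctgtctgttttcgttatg
Malat1, chr19:5802633-5802702, minus strand: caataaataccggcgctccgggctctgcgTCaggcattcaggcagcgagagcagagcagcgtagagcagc

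The run, which includes bases before the annotated first base, was 6 bases long in Gas5, 4 in Snhg1, 7 in Snhg8 and 9 in Snhg12, against 2 in Malat1. From the first base on it held 5, 3, 6 and 6 bases, against 1 in Malat1. Of all 32851 start sites of the table, 7.25% had a run of at least 6 bases, 14% of at least 4, 5.28% of at least 7 and 3.03% of at least 9. A second, upstream start listed for Gas5, at position 161034601, begins with G and has no such run. Neat1 and H19 had no entry.

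Runs of 5 or more T (U in the RNA) were counted in the longest annotated transcript of each mouse gene, since HuR prefers such stretches. Malat1 held 25 of them, or 3.58 per kilobase, and Neat1 held 61, or 2.94 per kilobase, against a median of 1.27 over 15069 genes with a mean level of at least 1 TPM. Snhg8 had 5.15 per kilobase, Snhg1 4.40, Gas5 2.35, Snhg12 1.95 and H19 0.437. By this measure Snhg8 stood above 97.1% and Snhg1 above 95% of these genes, Malat1 above 90.1% and H19 above 26.5%. The transcripts counted for Snhg1 and Snhg8, of 2728 and 776 bases, cover most of genes that span 2969 and 853 bases. Little is spliced out of these forms, so their counts do not describe fully spliced RNAs. The motif ATTTA, which contains no such run, occurred 12 times in Malat1 (1.72 per kilobase) and 21 times in Neat1 (1.01 per kilobase). Gas5 and Snhg1 held 6 each (2.35 and 2.2 per kilobase), Snhg12 and H19 1 each (0.65 and 0.437) and Snhg8 0. These counts describe letters and not binding. One stretch of each nuclear RNA is shown for how such runs lie, with the T runs and, in Malat1, the longest run of A near its end in capitals.
Malat1, chr19:5795918-5796129, minus strand: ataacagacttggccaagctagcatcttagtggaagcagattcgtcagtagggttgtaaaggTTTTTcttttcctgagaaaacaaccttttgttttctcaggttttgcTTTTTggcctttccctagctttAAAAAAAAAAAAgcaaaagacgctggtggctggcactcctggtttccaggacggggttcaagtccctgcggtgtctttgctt
Neat1, chr19:5834892-5834991, minus strand: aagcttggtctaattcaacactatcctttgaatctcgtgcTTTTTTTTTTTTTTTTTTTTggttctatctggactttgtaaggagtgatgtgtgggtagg

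The Malat1 stretch covers the U-rich and A-rich elements that fold into a triple helix and protect the mature end of this RNA, which has no poly(A) tail, followed by the tRNA-like part that is cut off. The Neat1 stretch surrounds its longest run of T, 20 bases, which begins at base 10528 of the transcript.

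Levels were deposited as TPM, reads divided by gene length and scaled to a sum of 1000000 in each library, over human genes alone in the humanized set. Reads per gene, recovered from the TPM as the smallest whole numbers that fit, came to 2670469 to 20302454 per humanized library and to 1423985 to 44668272 per WT library. In the WT set, LacZ 2 had 1423985 reads and HuR KD 6 had 12960373, the others at least 29787812, and these 2 libraries also stood apart in profile, with a median correlation of 0.921 and 0.956 with the other libraries against 0.981 to 0.984. In the humanized set, HuR KD 4 and LacZ 2, the libraries with the most reads on human genes, correlated at 0.965 with each other and every other pair at 0.866 to 0.931. Reads on mouse genes are not listed for this set, so sequencing depth and the human share of a liver cannot be told apart. Values without these 4 livers are given for calls and counts that leaving them out changed, but not for every gene named. Hepatocyte markers such as ALB were abundant in every liver, with a summed level over the list of 42418 to 93135 TPM in the humanized and 77785 to 91165 TPM in the WT livers.

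The targeted gene fell in both sets. Human ELAVL1 was at 4.05, 2.37, 3.54 and 3.90 TPM with HuR KD and at 5.76, 4.77, 6.17 and 5.99 TPM with LacZ. All 4 knockdown livers lay below all 4 controls, and the mean was 61.0% of the control mean (exact permutation p = 0.0286, two-sided, the smallest that 4 against 4 can give). Mouse Elavl1 ranged from 3.72 to 5.62 TPM (median 4.97) with HuR KD and from 8.58 to 10.7 TPM (median 9.49) with LacZ. Again the groups did not overlap, and the mean was 51.7% of control (exact permutation p = 0.00216, two-sided, the smallest that 6 against 6 can give). In limma's fit over all genes, the log2 fold change was -0.59 in the humanized livers (SE 0.17, adjusted p = 0.214) and -0.83 in the WT livers (SE 0.09, adjusted p = 0.00105).

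None of the 6 RNAs that were abundant enough to test passed it in the humanized livers with HuR knockdown, while 3 of 6, Snhg1, Snhg8 and Snhg12, were higher in the WT livers. A call here is an unadjusted p under 0.05 in limma on log2(TPM + 1), the threshold of the study, for genes with a mean of at least 1 TPM. H19 did not reach that mean in either species. By the same rule 11.5% of all 12738 human genes tested were called, 3.60% higher and 7.87% lower with HuR KD. Of the 15090 mouse genes 16.0% were called, 9.09% higher and 6.94% lower, so that 3 of 6 stands beside 9.09% for calls in that direction. After Benjamini-Hochberg adjustment over all genes 0 of 6 passed in either set. The counts by the unadjusted p were 0 and 3, and a fit with voom, limma's method for read counts, on the recovered reads gave 0 and 4, where it called 1326 of 12385 human and 3017 of 15077 mouse genes. In these bulk samples, fewer cells of a type and less RNA per cell cannot be told apart.

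**Figure D1:**
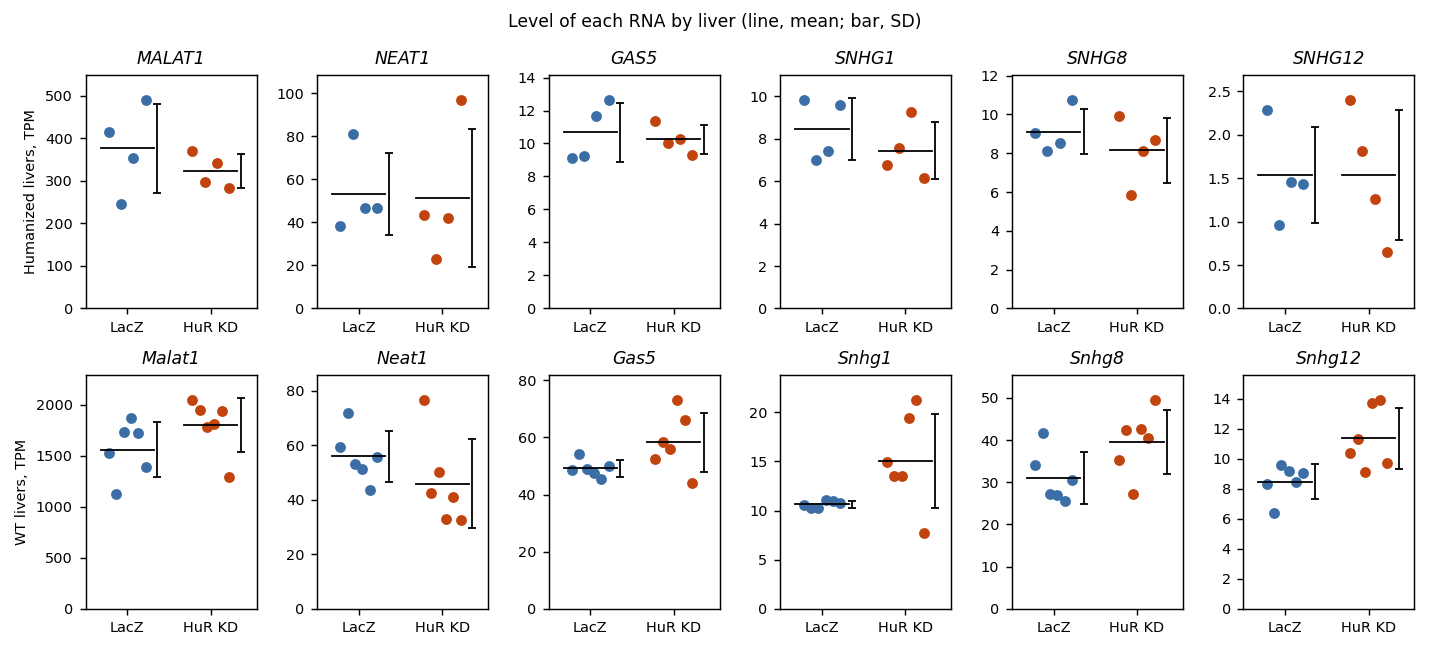
Level in TPM (linear vertical axes from 0) of 6 RNAs in each liver of the humanized set (upper row, 4 LacZ and 4 HuR KD) and of the WT set (lower row, 6 LacZ and 6 HuR KD), where each point is a liver, the line is the group mean and the bar its SD. The groups overlap in every panel, and for Snhg1 in WT livers 5 of 6 HuR KD livers lie above all LacZ livers while the sixth lies below them.

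MALAT1 was the most abundant of the 7 in both species, and its difference between the groups passed the test in neither set. Its humanized levels were 370, 297, 343 and 283 TPM with HuR KD and at 415, 245, 353 and 491 TPM with LacZ. The knockdown values all lay within the control range. The log2 fold change was -0.18 (SE 0.21, 95% interval -0.66 to 0.30, adjusted p = 0.809), with an exact permutation p of 0.514. It was -0.37 without LacZ 2 (unadjusted p = 0.0516 from limma), -0.04 without LacZ 4, and -0.31 without HuR KD 4 and LacZ 2 (unadjusted p = 0.0981). By mean LacZ level it ranked 100 among 26871 human genes listed above 0 and first among the long noncoding RNAs, of whose summed TPM it made up 6.21%.

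Mouse Malat1 ranged from 1296 to 2046 TPM (median 1873) with HuR KD and from 1124 to 1868 TPM (median 1625) with LacZ. Only 3 of 6 knockdown livers exceeded every control, and the lowest knockdown value was that of HuR KD 6. The log2 fold change was 0.21 (SE 0.14, 95% interval -0.09 to 0.51, adjusted p = 0.502), and the exact permutation p was 0.173. Without HuR KD 6 the log2 fold change was 0.31 with an unadjusted p of 0.0249, and without both HuR KD 6 and LacZ 2 it was 0.21 with an unadjusted p of 0.0290. Malat1 made up 14.4% of the TPM of mouse long noncoding RNAs.

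NEAT1 varied most of the tested RNAs between humanized livers. It stood at 43.2, 23.05, 41.9 and 97.0 TPM with HuR KD and at 38.4, 81.0, 46.5 and 46.5 TPM with LacZ. The highest value of each group belonged to the libraries that resemble each other, HuR KD 4 and LacZ 2. The log2 fold change was -0.18 (SE 0.40, adjusted p = 0.913), and its 95% interval of -1.07 to 0.71 spans changes in either direction of more than 1.5 times. Its sign turned when HuR KD 2 (0.13) or LacZ 2 (0.04) was left out.

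Mouse Neat1 ranged from 32.7 to 76.6 TPM (median 41.6) with HuR KD and from 43.7 to 71.9 TPM (median 54.4) with LacZ. Of the 6 knockdown livers 4 lay below every control, whereas HuR KD 1, at 76.6 TPM, lay above them all. The log2 fold change was -0.32 (SE 0.19, 95% interval -0.73 to 0.08, adjusted p = 0.440), and the exact permutation p was 0.149. Without HuR KD 1 it was -0.48 with an unadjusted p of 0.00433, and without HuR KD 6 and LacZ 2 it was -0.16 with an unadjusted p of 0.394. Neat1 was the only one of the 6 tested mouse RNAs with a negative estimate.

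The gene length that underlies the TPM of Neat1 was 2.975 times that of Malat1, which equals the ratio of their annotated exon bases, 20771 and 6983. One value per gene therefore covers the short and the long NEAT1 transcript, which share their 5′ part, and the isoforms cannot be told apart. Reads of the antisense transcript of MALAT1 could be told apart only if strand was used in counting, which was not stated in the sources used here.

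H19 was near 0 in the livers of both sets. Human H19 was listed at 0.221, 0, 0 and 0.0622 TPM with HuR KD and at 0, 0.126, 0.0933 and 0 TPM with LacZ. These values rest on 3 reads among 34486179 in the knockdown group and on 5 among 36134260 in the control group. Mouse H19 reached at most 0.153 TPM with HuR KD and 0.0575 TPM with LacZ, from 13 reads among 182459728 and 8 among 191635327. No liver had more than 4 reads, so no fold change is given and no difference was detectable at this depth (exact permutation p = 1 and 0.104). Its microRNA Mir675 was listed at 0 in all WT livers.

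GAS5, a host of many small nucleolar RNAs and a transcript that accumulates in growth-arrested cells, varied little between the humanized livers. Its level was 11.4, 10.01, 10.3 and 9.33 TPM with HuR KD and 9.13, 9.23, 11.7 and 12.7 TPM with LacZ. The knockdown values lay within the control range, and the log2 fold change was -0.04 (SE 0.15, 95% interval -0.38 to 0.29, adjusted p = 0.945). The sign turned to positive, by at most 0.04, under each of 3 other scalings of the libraries.

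Mouse Gas5 ranged from 43.9 to 73.1 TPM (median 57.1) with HuR KD and from 45.5 to 54.1 TPM (median 48.9) with LacZ. Above every control lay 4 of 6 knockdown livers, and HuR KD 6 lay below every control. The log2 fold change was 0.22 (SE 0.10, 95% interval -0.0001 to 0.45), at an unadjusted p of 0.0501 and an adjusted p of 0.312. Without HuR KD 6 it was 0.30 with an unadjusted p of 0.00341, and the call was also made without HuR KD 1 (0.25) or without LacZ 2 (0.25), under 3 other scalings and with voom.

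SNHG1 lies beside SLC3A2 and hosts 8 small nucleolar RNAs in the mouse. Humanized livers held it at 6.78, 7.57, 9.24 and 6.15 TPM with HuR KD and at 9.85, 6.996, 7.42 and 9.57 TPM with LacZ. Only 2 of 4 knockdown livers lay below every control, and the log2 fold change was -0.17 (SE 0.17, 95% interval -0.54 to 0.21, adjusted p = 0.769).

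Mouse Snhg1 ranged from 7.72 to 21.3 TPM (median 14.2) with HuR KD and from 10.2 to 11.1 TPM (median 10.7) with LacZ. The controls lay within 1 TPM of each other, that of LacZ 2 resting on 18 reads, 5 of 6 knockdown livers lay above all of them and HuR KD 6 lay below. The mean rose to 141% of control, with a log2 fold change of 0.40 (SE 0.18, 95% interval 0.01 to 0.79), an unadjusted p of 0.0430 and an adjusted p of 0.295, and an exact permutation p of 0.0887. The call was lost when any liver other than HuR KD 6 was left out (0.30 to 0.42), while without HuR KD 6 the log2 fold change was 0.57 with an unadjusted p of 0.000300.

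SNHG8, a short RNA that hosts 1 small nucleolar RNA, Snora24 in the mouse, stood at 9.90, 5.87, 8.13 and 8.69 TPM with HuR KD and at 9.03, 8.13, 8.51 and 10.8 TPM with LacZ in the humanized livers. The groups overlapped, and the log2 fold change was -0.16 (SE 0.17, 95% interval -0.54 to 0.23, adjusted p = 0.789). In the WT livers Snhg8 ranged from 27.3 to 49.5 TPM (median 41.5) with HuR KD and from 25.5 to 41.7 TPM (median 29.0) with LacZ. Of the knockdown livers 3 lay above every control. The highest control was LacZ 2, at 41.7 TPM from 21 reads, and the highest knockdown liver was HuR KD 6. The mean rose to 128% of control, with a log2 fold change of 0.34 (SE 0.15, 95% interval 0.02 to 0.66), an unadjusted p of 0.0365 and an adjusted p of 0.272, and an exact permutation p of 0.0541. Without both of these livers it was 0.36 with an unadjusted p of 0.0145. The call was made in 4 of the 12 fits that left out a single liver, those without HuR KD 1, HuR KD 3, LacZ 1 or LacZ 2, and lost in the other 8, where the log2 fold change was 0.27 to 0.34.

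SNHG12, which hosts Snora16a, Snora44, Snora61 and Snord99 in the mouse, was the least abundant of the tested RNAs. Human SNHG12 stood at 2.40, 1.82, 1.27 and 0.655 TPM with HuR KD and at 2.29, 0.961, 1.46 and 1.44 TPM with LacZ, from 10 to 45 reads per liver. The groups overlapped fully, and the log2 fold change was -0.03 (SE 0.29, 95% interval -0.68 to 0.62, adjusted p = 0.986), with a sign that turned under several alternatives.

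In the WT livers Snhg12 ranged from 9.09 to 13.9 TPM (median 10.8) with HuR KD and from 6.35 to 9.55 TPM (median 8.74) with LacZ. Of the 6 knockdown livers 5 lay above every control, and the lowest control was LacZ 2, from 9 reads. The mean rose to 134% of control, with a log2 fold change of 0.38 (SE 0.12, 95% interval 0.12 to 0.63), an unadjusted p of 0.00728 and an adjusted p of 0.143, and an exact permutation p of 0.00649. Of the 6 RNAs it was the one whose call was made in all 12 fits that left out a single liver, with log2 fold changes of 0.30 to 0.43.

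**Figure D2:**
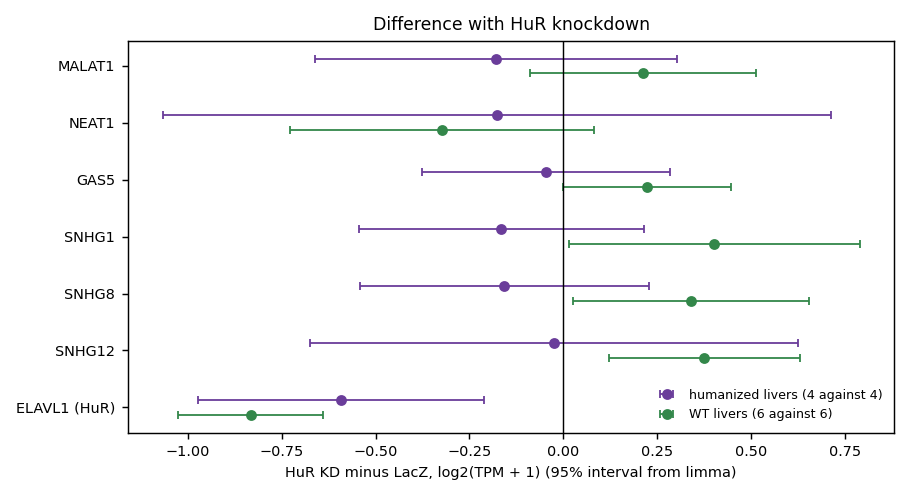
Difference between HuR KD and LacZ livers on the log2(TPM + 1) scale (horizontal axis) for 6 long noncoding RNAs and for ELAVL1, in humanized and WT livers, with points for the limma estimate and bars for its 95% interval. All 6 humanized intervals include 0, and those of Snhg1, Snhg8 and Snhg12 in WT livers lie above it.

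Because a call in 1 set alone does not show that the sets differ, the difference of the knockdown effects, humanized minus WT, was tested over 8202 genes paired by symbol. It was -0.57 for SNHG1 (SE 0.26, 95% interval -1.10 to -0.04, unadjusted p = 0.0371 from limma, adjusted p = 0.212) and -0.50 for SNHG8 (SE 0.22, 95% interval -0.96 to -0.03, unadjusted p = 0.0371 from limma, adjusted p = 0.212). The other 4 did not pass, with differences of -0.40 for SNHG12 (95% interval -0.92 to 0.12), -0.39 for MALAT1 (-0.90 to 0.12), -0.27 for GAS5 (-0.62 to 0.09) and 0.15 for NEAT1 (-0.69 to 0.98). The 2 of 6 calls stand beside 19.7% of all pairs, and the median difference over all pairs was -0.09. The count moved with the scaling of the libraries: with the total over protein-coding genes or with quantile normalization 0 of 6 differed and with median-of-ratios factors 1 did, while without WT HuR KD 6 and LacZ 2 3 of 6 did. Without humanized HuR KD 4 and LacZ 2 the count was again 2, but of other members: MALAT1 gained a call (-0.52, unadjusted p = 0.0311 from limma), SNHG8 kept its own (-0.58) and SNHG1 lost it (-0.57, unadjusted p = 0.0519). The sets also differ in species, host and virus, which cannot be told apart.

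**Figure D3:**
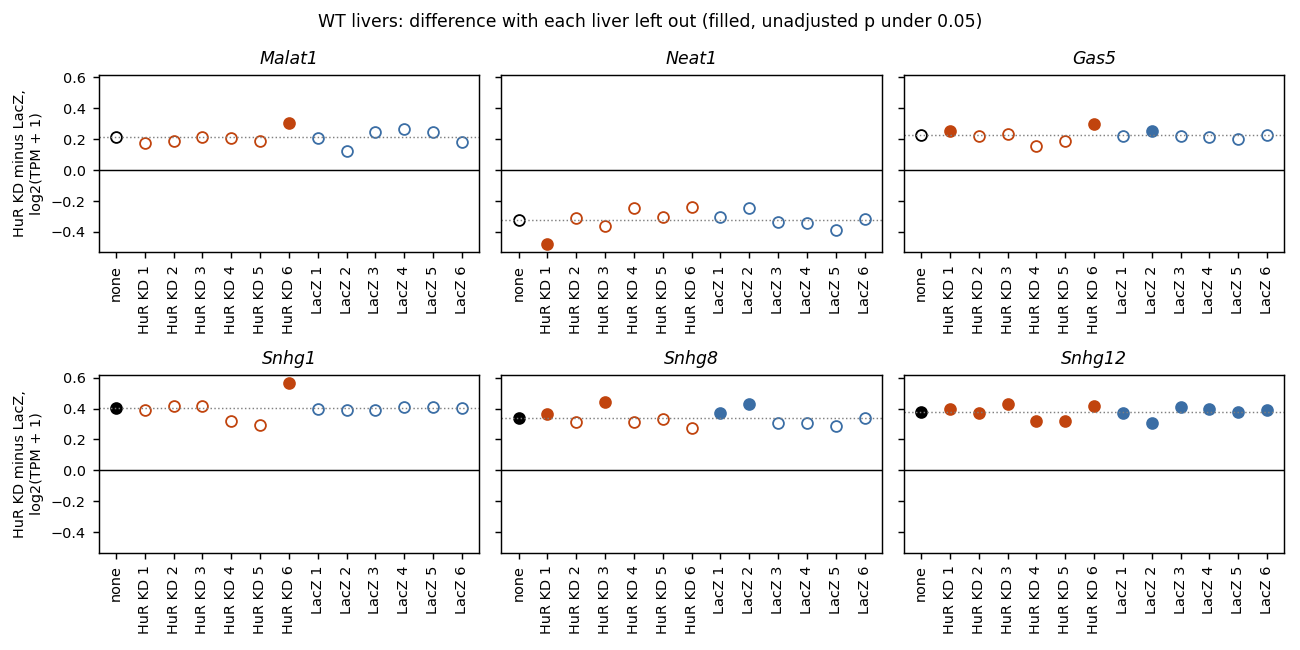
Log2 fold change (vertical axis, log2(TPM + 1) scale) of 6 RNAs in WT livers with no liver left out (black) and with each of 12 livers left out in turn (horizontal axis), where filled points have an unadjusted p under 0.05. Snhg12 stays filled throughout, and Snhg1 moves to 0.57 without HuR KD 6.

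The LacZ means of the 7 RNAs ran from 376 TPM for MALAT1 to 0.055 TPM for H19 in the humanized livers. In the WT livers they ran from 1560 TPM for Malat1 to 0.036 TPM for H19. Among human RNAs MALAT1 (245 to 491 TPM over all livers) stood above NEAT1 (23.05 to 97.0 TPM), and NEAT1 above GAS5 (9.13 to 12.7 TPM), with no overlap between livers. GAS5, SNHG8 (5.87 to 10.8 TPM) and SNHG1 (6.15 to 9.85 TPM) overlapped, and SNHG12 (0.655 to 2.40 TPM) and H19 followed below them. Among mouse RNAs Malat1 came first, then Neat1, Gas5 and Snhg8 with overlapping ranges, and then Snhg1 and Snhg12, which overlapped each other and lay below Snhg8 in every liver. The tables were normalised separately, and only the order within each is compared.

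How the RNAs varied together beyond the group means is given as Pearson's r of log2(TPM + 1) over the livers of a set, which share depth and composition, so no p is given. In the WT livers Gas5 and Snhg1 had the highest r of the 15 pairs, 0.85 over 12 livers and 0.75 over the 10 without HuR KD 6 and LacZ 2. Snhg1 and Snhg12 followed at 0.63, and reached 0.83 without these livers. The r of Snhg8 with the other host genes depended on them: with Gas5 it moved from 0.12 to 0.58, with Snhg1 from -0.22 to 0.42 and with Snhg12 from -0.12 to 0.62. So did the r with the logarithm of the reads per library, which moved from 0.78 to 0.27 for Malat1, from -0.68 to -0.47 for Snhg8 and from 0.63 to -0.20 for Snhg12. Human NEAT1 had an r of 0.80 with the logarithm of the reads and of -0.78 with SNHG12 over 8 livers, and of 0.17 and -0.19 over the 6 without HuR KD 4 and LacZ 2.

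Among all genes tested, those most like Gas5 in the WT livers were Btf3 (r = 0.95), which encodes a subunit of the nascent polypeptide-associated complex, the zinc finger gene Zfp52 (0.94) and the ribosomal protein gene Rpl34 (0.92). Those most like Malat1 were Epb41 (0.95) and 2 pseudogenes, Gm29475 and Gm4045 (0.95 each), and those most like Neat1 were the unconfirmed gene Gm37159 (0.92), the long noncoding RNA Gm43330 (0.90) and Zfp35 (0.89). The closest human genes were NEMP1, SKP2 and TTC3 for MALAT1 (0.98 to 0.99), C16orf70, PLCG2 and BHMT for NEAT1 (0.98 to 0.99), and MICU3, INTS1 and TRRAP for GAS5 (0.97 to 0.98). Such values, the highest of 12737 human and 15089 mouse genes compared over 8 and 12 livers, describe these livers only. Without the livers that stand apart they were 0.95 to 0.99 for the human and 0.77 to 0.91 for the mouse pairs.

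Of the other host genes of small nucleolar RNAs, 5 of 18 tested in the humanized livers were lower and 0 higher with HuR KD, with a median log2 fold change of -0.29 against -0.05 over all genes. DANCR fell from 10.5 ± 4.41 to 3.16 ± 1.34 TPM (SD, n = 4 each), a log2 fold change of -1.45 (SE 0.30, adjusted p = 0.0977 from limma). SNHG29 fell from 16.1 ± 2.41 to 11.5 ± 1.01 TPM and SNHG16 from 13.9 ± 2.92 to 8.71 ± 2.46 TPM. The other 2, SNHG4 and SNHG18, named after their values were seen, had log2 fold changes of -0.84 and -0.74. Without HuR KD 4 and LacZ 2 6 of 18 were lower and 0 higher, beside 11.2% of all genes lower in that fit and 7.87% in the fit with all livers.

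In the WT livers 2 of 14 other host genes were higher and 0 lower, with a median of 0.11 against 0.03 over all genes, and the share of 14.3% called is close to the 16.0% of all mouse genes. Zfas1 rose from 14.9 ± 1.49 to 22.1 ± 3.50 TPM (SD, n = 6 each), a log2 fold change of 0.53 (SE 0.10, adjusted p = 0.0391 from limma), and its groups did not overlap. Snhg15 rose from 2.97 ± 0.87 to 4.11 ± 0.55 TPM (log2 fold change 0.39, SE 0.16). Without HuR KD 6 and LacZ 2 7 of 14 were higher and 1 lower, beside 15.4% of all genes higher and 7.80% lower in that fit.

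The knockdown effect differed between the sets in 6 of the 12 other host genes that could be paired, each time lower in the humanized set. Of all pairs 19.7% were called in either direction. The median difference was -0.70 over the 12 and -0.09 over all pairs. After adjustment 3 passed: DANCR with a difference of -1.502 (adjusted p = 0.0151 from limma), SNHG4 with -1.11 (adjusted p = 0.0204) and ZFAS1 with -0.77 (adjusted p = 0.0251). Over the 3 other scalings 5 or 6 of 12 differed. Without WT HuR KD 6 and LacZ 2 7 of 12 differed, all 7 lower in the humanized set, beside 21.7% of all pairs. Without humanized HuR KD 4 and LacZ 2 7 of 12 differed, but only 6 of them were lower there, beside 26.0% of all pairs.

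**Figure D4:**
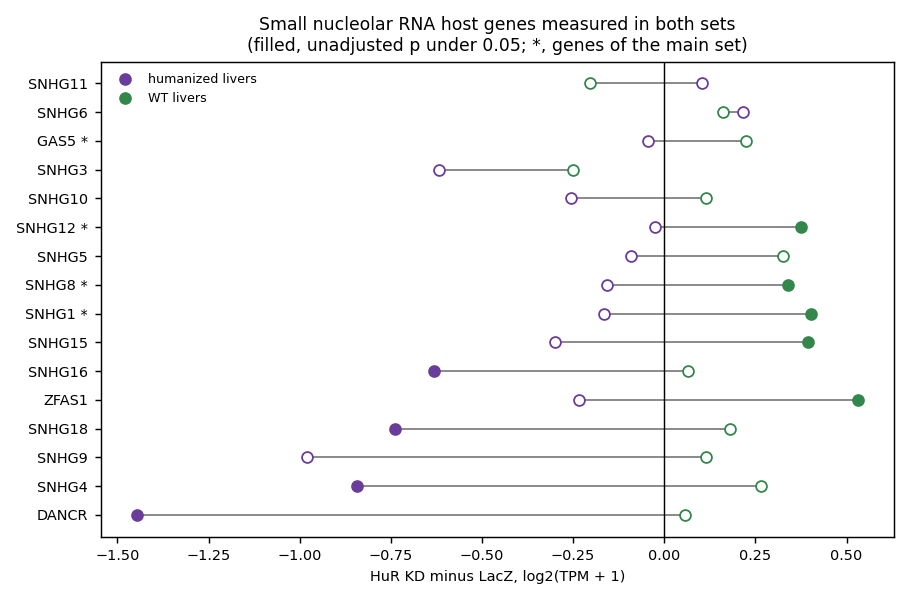
Log2 fold change with HuR KD (horizontal axis, log2(TPM + 1) scale) of 16 host genes of small nucleolar RNAs in humanized and WT livers, joined by a line for each gene and ordered by the difference between the sets, with filled points for an unadjusted p under 0.05 and asterisks for GAS5, SNHG1, SNHG8 and SNHG12. The humanized point lies to the left of the WT point in 14 of 16 genes, SNHG6 and SNHG11 being the exceptions. Over all pairs the median difference, humanized minus WT, was -0.09 and thus also below 0.

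The small nucleolar RNAs themselves could not be followed. All 24 annotated inside the 4 mouse host genes were listed at 0 in every WT liver. The annotated exons, over all transcripts, cover every base of Snhg1 (2969), Snhg8 (853) and Snhg12 (2402), and 3760 of 4118 bases of Gas5. Host levels can therefore include reads from unspliced RNA. How reads shared by a host exon and a small nucleolar RNA were counted was not given in the sources used here. The zeros are therefore not read as absence. Human rows were matched by name. A SNORD27 row was listed at up to 40.4 TPM with HuR KD and at 0 in every control. Its place in the gene order is between PSPC1 and NUFIP1 and not beside SNHG1. It was therefore not shown to be the copy inside SNHG1. SNORD99 was listed at up to 8.61 TPM with LacZ and at 0 with HuR KD. Neither row passed the test with all livers. Without HuR KD 4 and LacZ 2 the SNORD27 row did, with a log2 fold change of 2.89 (unadjusted p = 0.0375 from limma). Core proteins of the small nucleolar ribonucleoproteins were higher in 5 of 13 genes in WT livers and lower in 0, with a median log2 fold change of 0.19, beside 9.09% of all mouse genes higher. Without HuR KD 6 and LacZ 2 10 of 13 were higher, beside 15.4% of all genes. Nop56 rose from 11.7 ± 1.56 to 16.2 ± 3.34 TPM, Gar1 from 2.09 ± 0.75 to 3.30 ± 0.56 TPM and the methyltransferase gene Fbl from 5.29 ± 0.59 to 6.95 ± 1.32 TPM (SD, n = 6 each). Of the human genes RUVBL1 was the only 1 of 12 to pass, rising from 3.25 ± 0.92 to 5.76 ± 1.87 TPM (SD, n = 4 each), and without HuR KD 4 and LacZ 2 NOP56, named after its value was seen, was lower (-0.39).

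Proteins of the bodies that MALAT1 and NEAT1 belong to were also counted. Of the paraspeckle proteins 1 of 15 was higher in humanized (2 of 15 under each of the 3 other scalings) and 3 of 17 in WT livers, and 0 were lower, beside 3.60% of all human and 9.09% of all mouse genes higher. The paraspeckle gene PSPC1 passed in both, rising from 6.70 ± 1.18 to 9.97 ± 2.45 TPM in the humanized (SD, n = 4 each) and from 7.81 ± 0.94 to 10.4 ± 2.07 TPM in the WT livers (SD, n = 6 each). The other WT genes were Ewsr1 and Smarca4, with log2 fold changes of 0.20 and 0.19. Of the nuclear speckle proteins 0 of 17 passed in humanized livers, where log2 fold changes ran from -0.24 (SRSF3) to 0.26 (RNPS1), and 1 of 17, higher, under each of the 3 other scalings. In WT livers 4 of 18 were higher and 0 lower, among them the splicing factor gene U2af2 (25.0 ± 1.20 to 31.0 ± 1.98 TPM, SD, n = 6 each, adjusted p = 0.0380 from limma), Prpf8 (log2 fold change 0.21) and Srsf7 (0.21), and 8 of 18 were higher without HuR KD 6 and LacZ 2, beside 15.4% of all genes.

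Factors of nonsense-mediated decay, which limits spliced host transcripts, were called in 0 of 14 cases in humanized livers, with log2 fold changes from -0.24 (SMG9) to 0.21 (UPF3A). In WT livers 3 of 14 were higher and 0 lower, the exon junction genes Eif4a3 (0.24) and Rbm8a (0.22) and the helicase gene Upf1 (0.19), beside 9.09% of all mouse genes higher. Among other long noncoding RNAs, OIP5-AS1, a HuR-binding RNA, was lower in the humanized livers (13.8 ± 0.70 to 10.9 ± 0.77 TPM, SD, n = 4 each, log2 fold change -0.32), a call lost under each of the 3 other scalings. A human row under the symbol 7SK was higher (0.88 ± 1.22 to 4.40 ± 2.62 TPM, SD, n = 4 each). Its place in the gene order is between APOA1 and CD4. The 7SK gene itself carries the symbol RN7SK, so the row is not read as its level. Without HuR KD 4 and LacZ 2 the calls of OIP5-AS1 and of the 7SK row were not made, and 1 of 6 genes of this list was lower. In WT livers Rpph1, the RNA of RNase P, was higher (567 ± 88.7 to 800 ± 214 TPM, SD, n = 6 each).

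Around H19, which was itself near 0, genes of the imprinted network moved singly. Human GPC3, a cell surface proteoglycan of fetal liver, was higher (24.6 ± 17.3 to 109 ± 42.2 TPM, log2 fold change 2.38) and the repressor ZBTB20 lower (10.5 ± 1.36 to 6.53 ± 1.25 TPM, SD, n = 4 each). Mouse Slc38a4, an imprinted amino acid transporter, was lower (1057 ± 96.9 to 738 ± 49.5 TPM, SD, n = 6 each, adjusted p = 0.00928 from limma), and Mrpl23, near H19, and Igf2r were higher by 0.23 and 0.22 on the log2 scale, calls not made without HuR KD 6 and LacZ 2. With all livers 1 of 7 genes of this list was higher and 1 lower in the humanized set, and 2 of 9 higher and 1 lower in the WT set. Of all genes 3.60% were higher and 7.87% lower in the humanized set, and 9.09% and 6.94% in the WT set. Without humanized HuR KD 4 and LacZ 2, 2 of 8 genes of this list were higher and 1 lower, beside 4.48% and 11.2% of all genes. Neighbours of the other genes gave 1 call of 14 in the humanized livers, PRSS12 near SNHG8 (-0.73), beside 11.5% of all human genes called. Each of the 3 other scalings gave 2 more, beside 12.3% to 13.1% of all genes. In the WT livers 3 of 12 were called, beside 16.0% of all mouse genes, among them Slc25a45 (-0.29) and Wdr74 beside Snhg1 (0.24). Without the livers that stand apart, 1 of 14 was higher and 1 lower in the humanized set, beside 4.48% and 11.2% of all genes. In the WT set 2 of 12 were then higher and 2 lower, beside 15.4% and 7.80% of all genes.

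Markers of other cell types moved with the knockdown in the WT livers. Kupffer cell markers were lower in 5 of 11 tested genes and higher in 0, beside 6.94% of all mouse genes lower, with a summed level of 361 to 713 TPM with HuR KD and 526 to 718 TPM with LacZ, and with Clec4f at 29.5 ± 8.15 against 49.5 ± 8.56 TPM (SD, n = 6 each) and Cd68 (-0.40 on the log2 scale) and C1qb (-0.34) among them. T and NK cell markers, led by Gzma (-0.77) and Gzmb (-0.60), were lower in 2 of 8 and summed to 13.003 to 26.3 against 19.5 to 37.3 TPM. No marker of either list was at 0 throughout. Stellate cell markers were lower in 2 of 9 (Rgs5 -0.35, Lrat -0.32) and endothelial markers higher in 1 of 10 (Stab2 0.18, a call not made with median-of-ratios factors, with quantile normalization or without HuR KD 6 and LacZ 2), with 0 of 3 cholangiocyte markers called (-0.08 for Anxa4 to 0.23 for Sox9) and 1 of 8 hepatocyte markers lower (Hpx -0.54), or 2 of 8 with median-of-ratios factors or without HuR KD 6 and LacZ 2. Human macrophage markers summed to at most 3.59 TPM and T and NK cell markers to at most 5.02 TPM, with 6 of 11 and 7 of 12 at 0 throughout, CLEC4F, MARCO and CD3D among them, and endothelial markers to at most 1.82 TPM. The macrophage marker CD163 was called lower only without HuR KD 4 and LacZ 2 (-1.01) among the fits compared. Cholangiocyte markers were lower in 3 of 6 (ANXA4 -0.43, SPP1 -1.61, EPCAM -1.17), beside 7.87% of all human genes lower. They summed to 12.6 to 43.9 against 24.3 to 64.2 TPM. Lower were 2 of 6 with median-of-ratios factors or quantile normalization (6.88% and 6.81% of all genes) and 1 of 6 with the protein-coding total (6.49%). EPCAM lost its call under each of these 3 scalings. Without HuR KD 4 and LacZ 2, 5 of 6 were lower, beside 11.2% of all genes. Also lower were stellate cell markers in 1 of 3 (RELN -1.19), and hepatocyte markers in 0 of 10 (FGB -0.44 to APOA1 0.11), or 1 of 10 without HuR KD 4 and LacZ 2. The part of these cell types in the differences above was not tested.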

How the data were processed

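Total RNA of 20 livers was sequenced. Per the labels and methods, the authors trimmed the reads (cutadapt, Trim Galore), aligned them with HISAT2 to mm10, or to a combined GRCh38 and mm10 index for the humanized livers, counted them with featureCounts (Subread) and deposited TPM. The formula behind the TPM, and whether counting used strand, were not given in the sources used here. For the mouse members, the lengths recovered from the TPM had the same ratios as the annotated exon bases. Columns of samples left unused numbered 0.

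log2(TPM + 1) was compared with limma 3.58.1 (lmFit, eBayes with trend) in R 4.3.3, within each set where a gene averaged at least 1 TPM, and single genes by two-sided exact permutation over 70 or 924 groupings, with Python 3.11.15, numpy 2.4.6, pandas 2.3.3 and matplotlib 3.10.9. limma takes no counts here. Whole reads were recovered for 18702 human and 25110 mouse genes, all those with values in at least 4 livers, and summed to 1423985 to 44668272 per library. Both steps were tested on simulated data. Reads set the precision of low TPM, and intervals and exact tests cover the spread between livers.

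The members and lists were chosen with earlier results of these data known. Named are the members, ELAVL1, up to 3 genes per list with the smallest p under 0.05 (the lowest and highest fold change where none passed) and the 3 genes most like MALAT1, NEAT1 and GAS5. H19 has too few reads for the latter, and a gene that the rule names is not reported here. Fits with voom, with array weights and without livers that stand apart, and correlations without them, were added after the data were seen.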

Additional observations from a re-analysis of the deposited data

Results flagged for a closer look

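Malat1 in WT HuR KD 6, at 1296 TPM, lay far below the other 5 knockdown livers: the gap to the nearest of them was 0.642 of the group's range, above Dixon's critical value for 6 samples, which chance alone passes in about 1 of 20 groups. The check was made for every tested RNA in each group of both sets, and this was the only value that passed. A single pass among so many checks can come from chance. HuR KD 6 also had the fewest reads of its group, 12960373, and the lowest Gas5 and Snhg1 and the highest Snhg8. The part of depth in these values was not tested.

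The knockdown effect of SNHG1 differed between the sets by -0.57 (humanized minus WT, unadjusted p = 0.0371 and adjusted p = 0.212 from limma's interaction test), and that of SNHG8 by -0.50 (unadjusted p = 0.0371, adjusted p = 0.212 from the same test). In the humanized set 2 of 4 knockdown livers lay below every SNHG1 control and 0 above every control. In the WT set 5 of 6 lay above every control and HuR KD 6 below every control.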

How the results depend on the processing

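The humanized set gave 0 of 6 calls under every alternative run. For the WT set, 3 of 6 calls became 0 with adjusted p-values, 5 with array weights and 5 without HuR KD 6 and LacZ 2, fits that called 27.9% and 23.2% of all genes against 16.0%, and ranged from 1 to 4 with single livers left out: 1 without HuR KD 2, 4 or 5 or LacZ 3, 4, 5 or 6. For the difference between the sets, 2 of 6 became 1 with median-of-ratios factors and 0 with the protein-coding total, with quantile normalization and with adjusted p-values. The cause of these moves was not tested.

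Signs turned for humanized GAS5, SNHG12 and NEAT1 and for the NEAT1 difference. In the humanized livers GAS5 moved to 0.0273 (median-of-ratios factors), 0.0355 (protein-coding total), 0.0321 (quantile normalization) and 0.0349 (without LacZ 4), and SNHG12 to 0.0239 and 0.0280 (median-of-ratios factors, protein-coding total) and 0.0470 without HuR KD 4 and LacZ 2. With single livers left out, GAS5 ran from -0.11 to 0.03, SNHG12 from -0.18 to 0.16 (0.01 without HuR KD 3, 0.16 without HuR KD 4, 0.11 without LacZ 1) and NEAT1 from -0.54 to 0.13 (0.04 without LacZ 2). The NEAT1 difference between the sets was -0.0127 without WT HuR KD 6 and LacZ 2.

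Of 358 comparisons with an alternative, 40 of 54 counts stayed within 1.5 times and 251 of 304 single values kept their direction and side of the threshold. With the replicate number as a block (replicate block), 0 of 6 and 3 of 6 were called. Same-numbered livers correlated at -0.25 to 0.14 (humanized) and -0.14 to 0.21 (WT) around their group means, so that the numbers were not taken to pair livers. Another scaling moved the share of higher calls over all genes in the humanized set from 31.3% to 47.5% (median-of-ratios factors), 47.4% (protein-coding total) or 47.3% (quantile normalization) and the median by at most 0.07. Depth limits H19 in both species, and SNHG12 in the humanized livers.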
